A study of Mus musculus with 9 samples.

Results

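Notch1, Notch3, Dtx1, Hes1, Nrarp and Ptcra were examined as 6 genes of the Notch pathway and the pre-T-cell receptor (pre-TCR) among 22368 annotated genes. Members were chosen by gene symbol, and every called CTCF or Rad21 ChIP-seq peak that overlapped the mm9 gene body of a member or the 50 kb on either side of it was taken. Joining overlapping peaks of the 5 available peak lists gave 83 sites in these windows, of 83461 sites in the genome. The windows together covered 749.9 kb.

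The 5 lists came from single libraries of C57BL/6 mice. CTCF was measured in RAG-/-µ+ pre-B cells, which carry a rearranged IgM heavy chain transgene, and in RAG1-/- pro-B cells cultured for 7 days with IL7. Rad21, a subunit of cohesin, was measured in the same RAG-/-µ+ pre-B cells, in CD4-CD8- (DN) thymocytes of Rag1 -/- mice and in CD4+CD8+ (DP) thymocytes of Rag1 -/- mice with a rearranged TCRb transgene. All of these cells lacked RAG activity, so none rearranged its own antigen receptor genes, and the transgene took the pre-B and DP cells past the stage at which such mice stop. Bone marrow was taken from mice of 6 to 14 wk and thymocytes from mice of 4 to 8 wk. The pre-B CTCF and Rad21 libraries shared 1 input, and the other libraries each had an input of their own cells. CTCF in thymocytes was not analysed here, and a peak list holds no expression values against which the labelled cell types could be checked.

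Notch signalling commits progenitors to the T lineage. A ligand on thymic stroma releases the intracellular part of the receptor, which joins the DNA-binding protein RBPJ and activates target genes. Notch1 is the receptor needed for T-cell commitment and is active in DN cells, and Notch3 is a related receptor of immature thymocytes. Hes1, Dtx1 and Nrarp are targets of the pathway: Hes1 is a transcriptional repressor, Dtx1 is the ubiquitin ligase Deltex1, and Nrarp limits Notch signalling. Ptcra encodes pre-TCRα, which pairs with a newly made TCRβ chain, and passage of that checkpoint takes a DN cell to the DP stage, after which Notch signalling and Ptcra transcription decline. CTCF binds DNA through its zinc fingers, and cohesin held at CTCF sites is known for forming chromatin loops, while cohesin at active promoters and enhancers can lie away from CTCF.

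The sequences that carried the main sites are given first, on the mm9 assembly. Each line shows 30 bases around the best match, with at most 2 mismatches, to the 12-base CTCF consensus that the authors' own motif search had found, and the capitals mark that match. The first 6 sites were called in all 5 lists, and the last held the highest ranked pre-B CTCF peak around Ptcra. The strand given is the one on which the consensus reads. At the Notch3 exon site the other strand held an equally good match, so its strand is not settled.
Notch1, upstream end of the window, chr2:26421796-26421825, minus strand: tgtgtccctGCCCCCATGTGGaggtgtggg
Notch3, first part of the gene, intron, chr17:32299159-32299188, minus strand: gcacgcagcGCCCCCTCCTGGcgtgtcatc
Notch3, middle of the gene, exon, chr17:32280044-32280073, plus strand: aaaccaccaGTGCCCTGGTGGtagcagctg
Notch3, downstream flank, chr17:32212282-32212311, minus strand: gtggctcctGCCCCCTGGTGGcggacttaa
Dtx1, just upstream, chr5:121164500-121164529, plus strand: gtgcagagcGCCCCCTCGTGGccagagctt
Nrarp, downstream end of the window, chr2:25084014-25084043, plus strand: aggaagggtGCCCCCTAGTGGctagggaga
Ptcra, upstream flank, chr17:46920127-46920156, minus strand: tcttaaggaGCCCCCTGGCGGccactggga

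The downstream Notch3 site and the Nrarp site matched the consensus with 0 mismatches, and the Dtx1 and Ptcra sites with 1. The Notch1 site and both sites inside Notch3 had 2 mismatches. A match was held by 28 of the members' 52 CTCF peaks in pre-B (53.8%, exact 95% binomial interval 39.5 to 67.8), beside 48.3% of all 42250 pre-B CTCF peaks. Sequence of the same length 2000 bp away held a match for 6 of the 52 (11.5%, 4.35 to 23.4) and for 8.96% over all peaks. The members' share was near that of the whole list. These intervals, like all intervals given here, cover counting error only.

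Over the 6 windows, pre-B CTCF gave 52 peaks, the IL7 pro-B CTCF list 74, the pre-B Rad21 list 46, the DN Rad21 list 14 and the DP Rad21 list 48. Per megabase, these were 69.3, 98.7, 61.3, 18.7 and 64 peaks, beside 16, 26.9, 11.6, 3.68 and 13.9 over the genome. Windows drawn in the same way around all genes had medians of 4, 7, 3, 1 and 3 peaks. At least 1 peak fell in 84.7%, 90.9%, 79.9%, 56.9% and 78.1% of those windows. Whole lists held 42250, 71080, 30488, 9701 and 36743 peaks in the same order. The DN list was the shortest and ended at a score of 86.45, against 57.72 in DP and 59.74 in pre-B, so a weak DN peak had less chance to be listed. Read totals are not held in peak lists, so the depth of each library is unknown.

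Among the 2 receptors, the Notch1 window held 8 pre-B CTCF peaks, 14 IL7 pro-B CTCF peaks, 10 pre-B Rad21 peaks, 3 DN Rad21 peaks and 13 DP Rad21 peaks. For the DP count, 96.1% of all genes had fewer. The Notch3 window held 12, 17, 8, 5 and 7 peaks in the same order. For its 5 DN peaks, 98.7% of genes had fewer. The order of the members depended on the flank. With 50 kb, Notch1 had the most DP peaks and Notch3 the most DN peaks. These windows differed in length, from 102.6 kb for Nrarp to 158.8 kb for Notch1. Per 100 kb of window, Ptcra had 8.38 DP peaks to 8.19 for Notch1, and Notch3 still had the most DN peaks, at 3.42. With 20 kb, Ptcra had 7 DP peaks to 6 for Notch1, and Dtx1 had 3 DN peaks to 2 for Notch3. With 100 kb, Dtx1 had 20 DP peaks to 17 for Notch1, and Dtx1 and Notch3 each had 7 DN peaks.

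Among the targets, the Dtx1 window held 11, 13, 9, 3 and 7 peaks, again in the order pre-B CTCF, IL7 pro-B CTCF, pre-B Rad21, DN Rad21 and DP Rad21. The Nrarp window held 12, 13, 9, 2 and 8. The Hes1 window was the emptiest of the targets, with 3, 6, 4, 1 and 4 peaks, and its counts stayed below the median gene for both CTCF lists. Around Ptcra there were 6 and 11 CTCF peaks and 6 pre-B, 0 DN and 9 DP Rad21 peaks. Ptcra was the only member with no DN peak. Nor was that rare, since 43.1% of genes had no DN peak in their window.

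**Figure D1:**
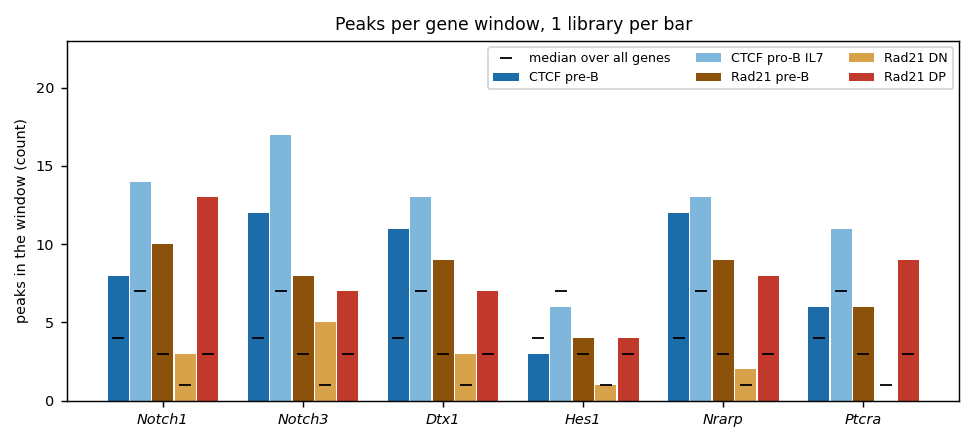
Number of called peaks (y axis) in the window of each gene (x axis), with 1 bar for each of the 5 libraries and a black dash at the median over all 22368 genes. Each bar is 1 library and has no error bar. The tallest bar is the IL7 pro-B CTCF count of Notch3, at 17, and the place of the DN bar of Ptcra is empty, at 0.

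Scores were compared only within a list, as a percentile: the percentage of that list's peaks with a lower score. The median percentile of the members' peaks was 49.2 for pre-B CTCF, 47.3 for IL7 pro-B CTCF, 39.8 for pre-B Rad21, 51.9 for DN Rad21 and 64.7 for DP Rad21. The share in the top 25% of the list was 30.8% (18.7 to 45.1), 25.7% (16.2 to 37.2), 30.4% (17.7 to 45.8), 14.3% (1.78 to 42.8) and 35.4% (22.2 to 50.5). Each of these intervals held 25%. A difference of the members' peaks from their lists in strength was not detectable at these counts.

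**Figure D2:**
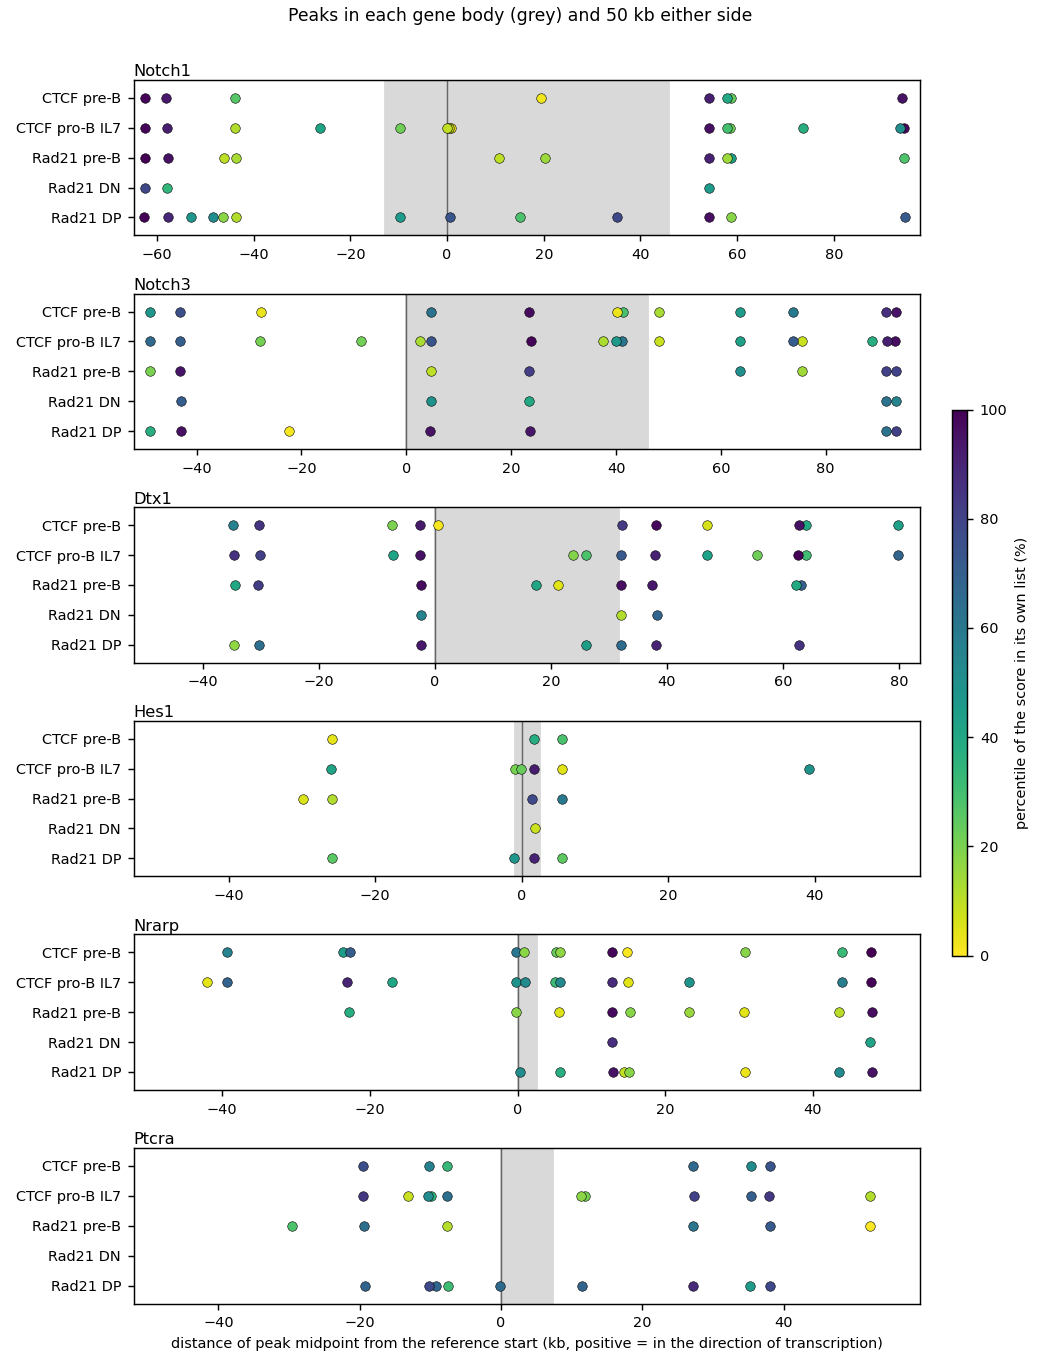
Each dot is 1 called peak, placed by the distance of its midpoint from the gene's reference start (x axis, kb, positive in the direction of transcription) and by library (y axis), and coloured by its percentile (%) in its own list. Grey marks the gene body. Columns of dots in all 5 rows, such as those at the upstream end of the Notch1 window, are the sites called in every list. Their dots are dark only where the percentile is high. The DN row of Ptcra is empty.

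Promoters differed between members and between lists. With a promoter taken as 1 kb either side of any annotated start, DP Rad21 was called at 4 of the 6 promoters (Notch1, Hes1, Nrarp and Ptcra), beside 33% of all genes. Pre-B Rad21 was called at 3 (Dtx1, Hes1 and Nrarp, 20.9% of genes), DN Rad21 at 1 (Hes1, 4.56%), pre-B CTCF at 3 (Dtx1, Hes1 and Nrarp, 27.1%) and IL7 pro-B CTCF at 3 (Notch1, Hes1 and Nrarp, 38.8%). Some of these starts belong to short transcript fragments. With starts of transcripts of the gene's own type only, the counts were 4 for DP (31.5% of genes), 2 for pre-B Rad21 (18.9%), 0 for DN (3.72%), 2 for pre-B CTCF (24.6%) and 3 for IL7 pro-B CTCF (36.4%), a choice made after the data had been seen. Notch3 had no promoter peak in any list. The 4 DP promoters comprised 1 of the 2 receptors, 2 of the 3 targets and Ptcra. With each Rad21 list limited to its 9701 strongest peaks and any annotated start, the DP count was 2 (Notch1 and Hes1, beside 7.79% of genes) and the pre-B Rad21 count was 1 (Hes1, beside 5.33%). With starts of the gene's own type, these were 1 (Notch1, beside 6.89%) and 1 (Hes1, beside 4.15%), since the strong DP peak in Hes1 lay near fragment starts only.

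At Ptcra (17:46893176-46900542, minus strand), the DP Rad21 peak lay over the start itself, at 46900250 to 46900989, and ranked above 66.1% of the DP list. No other list had a peak there. The nearest pre-B CTCF, IL7 pro-B CTCF and pre-B Rad21 peaks were 7.49, 7.44 and 7.29 kb upstream of the start. The nearest DN Rad21 peak was 270 kb upstream, while the median over all genes was 52.4 kb and 16.7% of genes had their nearest DN peak at least as far away. At the gene for pre-TCRα, then, cohesin was called at the promoter in DP alone and without CTCF in either B-lineage list. The DP peak ranked 12464th, so it falls outside the 9701 strongest DP peaks, the length of the DN list.

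The 250 bases before the RefSeq start of Ptcra, which all lay under this DP peak, are printed because they hold the only matches to TGGGAA, the core of RBPJ sites, among the member promoters in the RefSeq table. The sequence comes from RefSeq on GRCm38.p6 and was found unchanged at 1 place in mm9, chr17:46900662-46900911, minus strand, with the TGGGAA matches in capitals.
Ptcra promoter: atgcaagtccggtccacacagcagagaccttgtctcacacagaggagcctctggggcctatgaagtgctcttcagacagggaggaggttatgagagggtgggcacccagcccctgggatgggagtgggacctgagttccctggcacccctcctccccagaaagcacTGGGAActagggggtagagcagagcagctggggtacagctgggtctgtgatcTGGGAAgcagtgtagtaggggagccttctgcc
Searched on both strands, TGGGAA occurred 2 times and CANNTG, the E-box bound by E proteins, also 2 times. TGTGGT, the core bound by Runx proteins, was not found in these letters. Of 32851 RefSeq promoters of this length, 21.6% held TGGGAA, 66.2% CANNTG and 14% TGTGGT. Of the 6 members, 5 were in the table: Notch1, Notch3, Dtx1 and Nrarp had 0 matches to TGGGAA in their 250 bases. A match is a string of letters and not a measured site.

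The rest of the Ptcra window belonged largely to other genes. Of its 8 DP Rad21 sites, 4 lay within 1 kb of the start of a full transcript of another gene (Gnmt, Cnpy3, 2310039H08Rik and Rpl7l1). The site at 46872992 to 46873748, inside Cnpy3 and 27.2 kb downstream of the Ptcra start, was called in both CTCF lists (65.9 in pre-B, 80.3 in IL7 pro-B), in pre-B Rad21 (61.1) and in DP Rad21 (88). Its Rad21 percentile was thus 27 points higher in DP than in pre-B, and 84.6% of the Rad21 sites shared by the 2 lists had a smaller value of this difference. At 46862098 to 46862953, over an exon of Pex6, lay the window's highest ranked IL7 pro-B CTCF peak (83.9) and pre-B Rad21 peak (72.2), with pre-B CTCF at 74.2 and DP Rad21 at 78.2. The site at 46909248 to 46911312, which covers the 2310039H08Rik promoter 9.74 kb upstream, had 2 DP peaks, the stronger at 78.4, and CTCF in both B-lineage lists, with no pre-B Rad21. The site with the consensus printed above, 19.3 kb upstream, had pre-B CTCF at 75.8, IL7 pro-B CTCF at 83.8, pre-B Rad21 at 63.7 and DP Rad21 at 68.6. None of these sites had a DN peak.

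At Notch1 (2:26313423-26372183, minus strand), DP Rad21 was called across the reference start, at 26357958 to 26359646, at the 73.8 percentile. The IL7 pro-B CTCF list had 3 weak peaks in the same site, the strongest at 9.75, and pre-B CTCF, pre-B Rad21 and DN Rad21 had none. The nearest DN Rad21 peak was 53.8 kb away, beyond the 3′ end of the gene. Thus the start of Notch1, like that of Ptcra, carried Rad21 in the DP list alone. It ranked 9616th in DP and so stays in a DP list limited to the length of the DN list.

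The body of Notch1 held 3 further DP Rad21 sites. The strongest, at 26323694 to 26324614, lay 35.2 kb into the gene and touched exon 25 of the 34 exons of the reference transcript. It ranked above 77.9% of the DP list, and no other list had a peak there. The other sites were 15 kb into the gene in intron 2 (26344118 to 26344475, 28.3) and 9.79 kb before the reference start, inside a longer transcript (26368810 to 26369458, 45.7). The latter overlapped an IL7 pro-B CTCF peak at 21.9. In pre-B, Rad21 was called at different places in the gene, in intron 4 at 26338599 to 26339492 (14.9) and in intron 2 at 26348239 to 26348975 (9.83), both without CTCF. A pre-B CTCF peak at 2.18 lay at exon 4. The gene body thus held no Rad21 site that pre-B and DP shared, and the pre-B peaks were weak ones.

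The 3 DN Rad21 peaks of Notch1 lay in its flanks, at sites called in all 5 lists. The site at the upstream end of the window, 26421350 to 26422394, 62.5 kb from the reference start, ranked highest of the members' sites in the pre-B and DP Rad21 lists. Its percentiles were 98.9 for pre-B CTCF, 98.8 for IL7 pro-B CTCF, 99.9 for pre-B Rad21, 78.7 for DN Rad21 and 99.6 for DP Rad21. It ranked 40th of the pre-B Rad21 list and 160th of the DP list. Next to it, the site at 26416288 to 26417947 had 93.4, 91.6, 95.4, 34.2 and 89.3 in the same order, and the site at 26304716 to 26305703, 7720 bp beyond the 3′ end in an intron of 0610009E02Rik, had 91.7, 96, 91, 45.5 and 96.2. These 3 sites framed the gene, while between them no list had a peak above the 77.9 percentile in the gene body.

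Notch3 (17:32257765-32303825, minus strand) had no peak at its promoter, and strong sites lay inside the gene. One lay in intron 2, 4.65 kb from the start, at 32298773 to 32299571. The percentiles there were 62.2 for pre-B CTCF, 73.6 for IL7 pro-B CTCF, 9.83 for pre-B Rad21, 48.9 for DN Rad21 and 95.2 for DP Rad21. Rad21 was among the strongest peaks of the DP list, near the middle of the DN list and among the weakest of the pre-B list, while CTCF in pre-B cells was above the middle. The DP percentile exceeded the pre-B percentile by 85.4 points, a difference above that of 99.9% of the 20324 Rad21 sites called in both. This site was singled out after its values were seen, and with 1 library for each cell type the difference has no replicate check.

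The second site inside Notch3, at 32279628 to 32280817 over exon 24 of 33, lay 23.6 kb into the gene. Its percentiles were 97.1 for pre-B CTCF, 99.1 for IL7 pro-B CTCF, 82 for pre-B Rad21, 40.2 for DN Rad21 and 94.2 for DP Rad21. Here both CTCF lists and the pre-B and DP Rad21 lists were high. The DP percentile was 12.3 points above the pre-B percentile. Toward the 3′ end of Notch3, the gene body had 3 sites with IL7 pro-B CTCF, at 61.6, 46.2 and 12.3, of which the first 2 were also called in pre-B CTCF, and no Rad21 list had a peak at them. Near the start, IL7 pro-B CTCF was called at 13 over exon 2, again without Rad21.

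The flanks of Notch3 held the other 3 sites called in all 5 lists. A pair of neighbouring sites lay beyond the 3′ end, at 32209864 to 32210939 and at 32211866 to 32212693, the latter with an exact consensus. Their Rad21 percentiles were 80.3 and 81.2 in pre-B, 54.9 and 62.1 in DN, and 81.1 and 62 in DP. Of the 5 DN peaks of Notch3, 2 thus lay inside the gene and 3 in flanks.

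At Dtx1 (5:121130211-121161936, minus strand), the site 2.65 kb upstream of the start, at 121163998 to 121165166, was called in all 5 lists. Its percentiles were 93 for pre-B CTCF, 95.6 for IL7 pro-B CTCF, 97 for pre-B Rad21, 54.9 for DN Rad21 and 93.6 for DP Rad21. The promoter proper had only a pre-B CTCF peak at the 1.19 percentile, at 121161098 to 121161798. The pre-B Rad21 peak counted at a Dtx1 promoter lay 17.5 kb into the gene, at the start of the fragment Dtx1-002, at 40.9.

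The 3′ end of Dtx1 was covered by a site at 121129439 to 121130287, over its last exon, near the 3′ end of Rasal1 and the start of the fragment Rasal1-004. CTCF was at 82.6 in pre-B and 72.4 in IL7 pro-B, and Rad21 at 96.3 in pre-B, 11.7 in DN and 65.3 in DP. Rad21 was here 31 points lower in DP than in pre-B, the opposite of the Notch3 intron, and 9.88% of the shared sites had a lower value of this difference. Another site called in all 5 lists lay 4807 bp beyond the 3′ end, at 121123466 to 121125404, with Rad21 at 93.4, 67.9 and 90.1 in pre-B, DN and DP. At 97.7, its pre-B CTCF peak was the highest ranked of that list in the window. The gene body between start and 3′ end held only weaker peaks, of which DP Rad21 had 1, at 44.8 in intron 3 with IL7 pro-B CTCF at 28.3. Also in intron 3, IL7 pro-B CTCF was called at 18.5 and pre-B Rad21 at 4.4. The highest ranked CTCF peak of the window, in IL7 pro-B at 99.3, lay at 121098402 to 121099997 over the Rasal1 promoter, with pre-B CTCF at 95.7, Rad21 at 69.5 in pre-B and 85.8 in DP, and no DN peak.

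At Hes1 (16:30064470-30067882, plus strand), one wide site at 30066002 to 30067644 covered exons 2 to 4 and was called in all 5 lists. The percentiles were 38 for pre-B CTCF, 92.2 for IL7 pro-B CTCF, 77.4 for pre-B Rad21, 8.06 for DN Rad21 and 90.4 for DP Rad21. CTCF was thus high in cultured pro-B cells and below the middle in pre-B cells, and Rad21 was high in pre-B and DP and near the end of the DN list. Its strongest pre-B CTCF peak held no match to the consensus within 2 mismatches. Upstream of it, IL7 pro-B CTCF was called over the reference start at 23.2 and near an earlier start at 20.7, the latter site with DP Rad21 at 47.1. The DN peak lay within 1 kb only of the start of a fragment, so Hes1 counts among DN promoters only when fragments are included.

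At Nrarp (2:25036278-25038850, plus strand), the promoter site at 25035768 to 25037631 was called in both CTCF lists (60.9 in pre-B, 52.7 in IL7 pro-B) and in 2 Rad21 lists (17.7 in pre-B, 51 in DP). It was the only member promoter at which every list but the DN list had a peak over the start. The DN peaks lay 12.9 and 47.9 kb downstream. The nearer of these sites, at 25048636 to 25049651 in an exon of A830007P12Rik, had the highest DN percentile of the 83 sites. It had 98.2 for pre-B CTCF, 88 for IL7 pro-B CTCF, 97.1 for pre-B Rad21, 86.4 for DN Rad21 and 95.2 for DP Rad21. The farther, at 25083508 to 25084845 in an exon of Slc34a3, had 99.7, 99.3, 96.1, 41.9 and 95 in the same order, and ranked 27th of the pre-B CTCF list.

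CTCF and cohesin overlap was counted both by peak and by site. In pre-B cells, 36 of 52 CTCF peaks (69.2%, 54.9 to 81.3) overlapped Rad21, beside 63.5% of the list. That share was 30.8% with the pre-B Rad21 list limited to its 9701 strongest peaks and the pre-B CTCF list left whole. Without peaks scored below 100 it was 54.5%. Neither value has a share over the whole list beside it. Of the 46 pre-B Rad21 peaks, 36 (78.3%, 63.6 to 89.1) overlapped pre-B CTCF, beside 88.1%. Of the 74 IL7 pro-B CTCF peaks, 50 (67.6%, 55.7 to 78) overlapped pre-B CTCF, beside 58.6%. With full lists, each of these intervals held the share of the whole list. Of the 83 sites, 45 had both proteins (54.2%, 42.9 to 65.2, beside 40.1% of all 83461 sites). There were 25 with CTCF and no Rad21 (30.1%, 20.5 to 41.2, beside 44.8%) and 13 with Rad21 and no CTCF (15.7%, 8.61 to 25.3, beside 15.1%). Sites with both proteins thus took a larger share in the windows than in the genome, and sites with CTCF alone a smaller one. For both, the genome's share lay outside the interval. These intervals take the sites as independent, although many are neighbours in the same window. Windows around other genes were not compared in this way, and these shares were not counted again under other settings. Sites with CTCF alone were most frequent around Notch3, at 9 of its 18 sites, and sites with Rad21 alone around Notch1, at 7 of its 19.

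Joining the Rad21 lists alone gave 60 Rad21 sites in the windows and 46478 in the genome. This is more than the 58 sites with Rad21 among the 83, because CTCF peaks joined DP peaks that did not touch each other. Of the 60, 14 (23.3%, 13.4 to 36) were called in all 3 cell types, beside 18.7% of all Rad21 sites. There were 19 (31.7%, 20.3 to 45) called in pre-B and DP and not in DN, beside 25.1%. DP-only sites numbered 15 (25%, 14.7 to 37.9, beside 33.6%) and pre-B-only sites 12 (20%, 10.8 to 32.3, beside 20.6%). Called in DP and not in DN were 34 of 60 (56.7%, 43.2 to 69.4), beside 58.6%. All of these intervals held the genome's share, and the share without a DN peak at these genes was near that of all Rad21 sites.

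No site was called in DN and not in DP, 0 of 60, which allows a share of up to 5% by the limit of 3 counts (5.96% by the exact interval), beside 1.14% of all Rad21 sites. Likewise 0 of 60 were called in DN and DP and not in pre-B, beside 0.94%, so with full lists a thymocyte list without pre-B, 15 of 60 (25%, 14.7 to 37.9, beside 34.8%), always meant DP alone. All 14 DN peaks of the windows lay at sites called in all 5 lists (100%, 76.8 to 100), and 89.5% of DN sites in the genome did, a share inside that interval.

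To set aside list length, each Rad21 list was limited to its 9701 strongest peaks. In these lists, 21 of 15276 Rad21 sites fell in the windows, and 11 of them (52.4%, 29.8 to 74.3) were in all 3 cell types, beside 33.2%. Another 2 were in pre-B and DP and not in DN (9.52%, 1.17 to 30.4, beside 6.5%), and 1 in pre-B only (4.76%, 0.12 to 23.8, beside 14.8%). Called in DP and not in DN were 6 (28.6%, 11.3 to 52.2, beside 22.1%), and in DN and not in DP 2 (9.52%, 1.17 to 30.4, beside 22%). The latter were the downstream Notch3 site with the exact consensus and the site at the 3′ end of Dtx1. In a thymocyte list and not in pre-B were 5 (23.8%, 8.22 to 47.2, beside 36.5%). Of these, 4 were in DP only (19%, 5.45 to 41.9, beside 15.6%): the Notch1 start, the site at exon 25 of Notch1, and the sites inside Cnpy3 and at the 2310039H08Rik promoter near Ptcra. The fifth, in DN and DP, was the Notch3 intron 2 site, the only one of the 21 with this pattern (4.76%, 0.12 to 23.8, beside 7.9%).

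**Figure D3:**
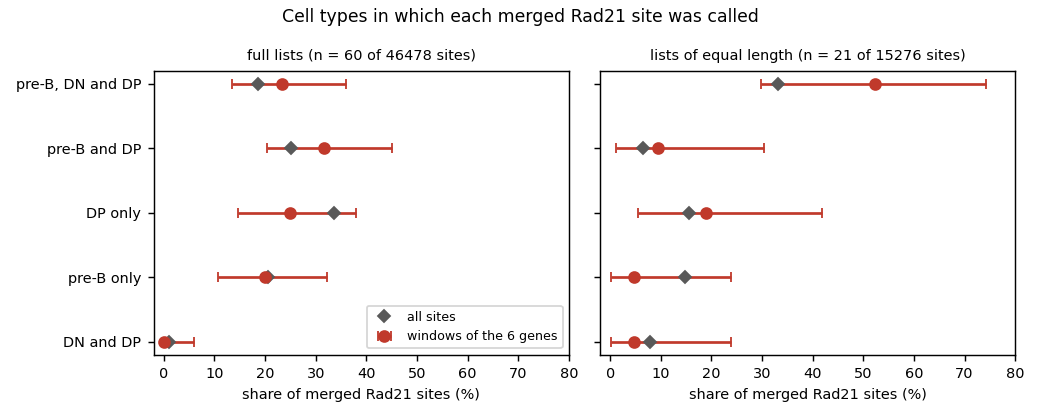
Share (x axis, %) of merged Rad21 sites called in the combinations of cell types named on the y axis, with full lists on the left and lists limited to equal length on the right. Sites called in DN alone, or in pre-B and DN without DP, are not drawn. Red circles are the windows of the 6 genes with exact 95% binomial intervals for counting error, and grey diamonds are all sites. Each red interval reaches the grey diamond beside it.

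Some Rad21 sites lay without B-lineage CTCF. Of the 15 DP-only sites, 6 (40%, 16.3 to 67.7) had no CTCF in either B-lineage list, beside 65.7% of DP-only sites in the genome. Of the 12 pre-B-only sites, 6 (50%, 21.1 to 78.9) had none, beside 14.6%, so here the interval lay above the genome's share. Many shares were compared, and some of these sites lie in the same gene, and the interval allows for neither. Those 6 pre-B sites lay in Notch1 (14.9 and 9.83), in Dtx1 (4.4 in intron 3 and 40.9 at exon 3), 29.9 kb upstream of Hes1 (5.6) and 29.5 kb upstream of Ptcra (28.2). All 6 were below the middle of the pre-B list. Of the 14 sites called in all 3 cell types, 0 lacked CTCF, which allows a share of up to 21.4% by the limit of 3 counts (23.2% by the exact interval), beside 0.104% of all such sites.

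Pre-B and DP shared 33 Rad21 sites in the windows. The median difference in percentile, DP minus pre-B, was 1.09 points, and 1.45 over all 20324 shared sites. DP was the higher at 19 of the 33 (57.6%), beside 53.9%. The members' sites thus showed no common shift, and their extremes lay in opposite directions. After the Notch3 intron, DP exceeded pre-B most at the far downstream Notch1 site at the Inpp5e promoter (28.1 in pre-B, 71.8 in DP) and at the Tubb2c promoter near Nrarp (10.4 and 52.1). The Nrarp promoter itself followed, 33.3 points higher in DP. Pre-B exceeded DP most at the site 5.54 kb downstream of the Hes1 start (59 in pre-B, 24.9 in DP) and at the 3′ end of Dtx1.

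**Figure D4:**
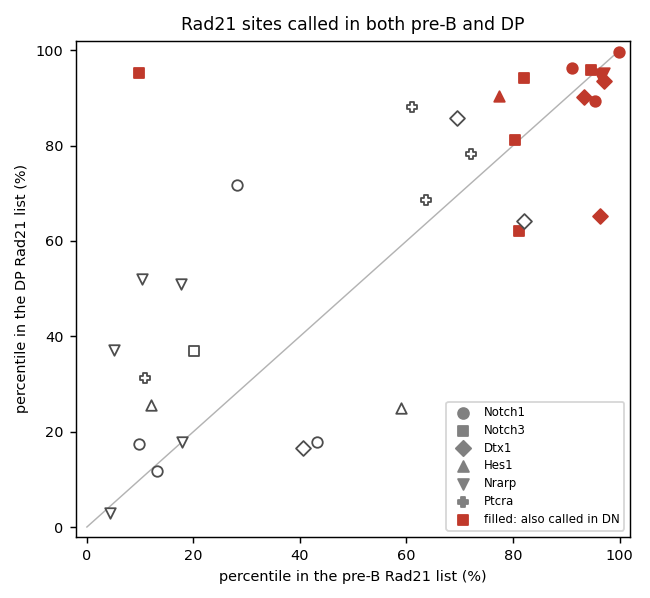
Each point is 1 of the 33 Rad21 sites called in both lists, by its percentile (%) in the pre-B list (x axis) and in the DP list (y axis). The marker shape gives the gene, filled points were also called in DN, and the grey line marks equal percentiles. The filled square at top left is the Notch3 intron 2 site, at 9.83 in pre-B and 95.2 in DP.

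Other genes of the same pathways were listed to place the 6. All 34 other Notch pathway genes, covering ligands, further receptors, processing enzymes, the nuclear complex, regulators and Hes/Hey targets, were found, and their windows had medians of 5.5 pre-B CTCF, 11 IL7 pro-B CTCF, 5 pre-B Rad21, 1 DN Rad21 and 6 DP Rad21 peaks. The 6 members had medians of 9.5, 13, 8.5, 2.5 and 7.5. DP Rad21 was called at the promoters of 21 of the 34 (61.8%, beside 33% of genes), pre-B Rad21 at 9 (26.5%, beside 20.9%), DN Rad21 at 4 (11.8%, beside 4.56%), pre-B CTCF at 13 (38.2%, beside 27.1%) and IL7 pro-B CTCF at 20 (58.8%, beside 38.8%). Most peaks lay around Maml3, a coactivator of the nuclear Notch complex, with 22 in DP and 3 in DN, in the longest window of the list (517.3 kb, median 126.4 kb), and around Numbl, a relative of the Notch inhibitor Numb, with 9 and 1. The fewest lay around the target Hey1, with 2 DP peaks and 0 in DN, and around the ligand Jag1, with 0 in both.

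The 9 other pre-TCR signalling genes differed from Ptcra in DN. Their windows had medians of 5 pre-B CTCF, 9 IL7 pro-B CTCF, 6 pre-B Rad21, 3 DN Rad21 and 17 DP Rad21 peaks, and each of the 9 had at least 1 DN peak, as 56.9% of all genes did. DP Rad21 was called at all 9 promoters (100%), beside 33% of all genes. Pre-B Rad21 was called at 3 (33.3%, beside 20.9%), pre-B CTCF also at 3 (beside 27.1%), IL7 pro-B CTCF at 4 (44.4%, beside 38.8%) and DN Rad21 at 0 (beside 4.56%). Promoter counts of these genes and of the other Notch pathway genes used full peak lists and any annotated start. They were not repeated with lists of equal length, and the DN list is the shortest. Lck, the kinase that starts signalling from the receptor, had 17 DP and 2 DN peaks, and Cd247, which encodes the CD3ζ chain, had 15 and 3. Cd3d, a CD3 chain, had 17 and 3, and the kinase Fyn 12 and 1. Neighbouring CD3 genes share peaks because their windows overlap, so these counts are not independent of each other. Ptcra, with 9 DP peaks and 0 DN peaks, had fewer of both than the median of this list.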

How the data were processed

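The deposited files hold, for each of 5 ChIP-seq libraries, the position and score of the peaks the authors called. Per the methods, duplicates and adapters were removed by the authors before alignment to mm9, keeping reads with up to 2 mismatches at up to 3 places, and peaks were called with MACS at a false discovery rate of at most 1%. The submitters' processing notes name Bowtie 0.12.9 and MACS 1.4.2, and the methods name another Bowtie release. The deposited score was taken to be the p-value score that MACS writes, which the files do not state. Since such a score depends on depth, peaks were ranked within their own list. Scores were set across lists only to give where each list ends and for an alternative minimum of 100.

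From these files, peaks were counted in each gene body with 50 kb on either side (1 bp of overlap, GENCODE annotation on mm9), joined into sites, ranked, and searched for the consensus with Python 3.11.15 and pysam 0.24.0. A site with several peaks of 1 list has the percentile of the strongest. Each group had 1 library, so no test between cell types was made, and shares carry exact Clopper-Pearson 95% intervals (scipy 1.17.1). Overlap, joining and the consensus search were tested on simulated data. Reads, inputs and depth were not used here. Sites were named where they overlapped a promoter or gene body of a member, held the highest ranked peak of a window, or were called in DN and not DP or in both thymocyte lists and not pre-B. A site of the Notch3 window that met this rule is not reported here. Further flanking sites, named because they were called in all 5 lists, differed between pre-B and DP, stood out in lists of equal length, were Rad21 sites without CTCF or lay at other genes' starts, were chosen after their values were seen. The remaining sites enter the counts only. Of the other pathway genes, the 2 with most and the 2 with fewest peaks were named. The members and lists were chosen with earlier results of these data known. Ptcra is typed by GENCODE as an immunoglobulin-like constant gene and was counted with the protein-coding genes.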

Additional observations from a re-analysis of the deposited data

How the results depend on the processing

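No paired analysis was possible because each group had 1 library. Of 117 values of 21 main results under other settings, 84 stayed within 1.5 times the count or inside the interval of the share. Without peaks scored below 100, the windows held 27 pre-B Rad21 peaks, 0 genes had a DN promoter peak, 39.5% of Rad21 sites were in a thymocyte list and not in pre-B, and 54.5% of pre-B CTCF peaks had Rad21. With lists of equal length, they held 44 IL7 pro-B CTCF, 16 pre-B Rad21 and 18 DP Rad21 peaks, and 50% of the pre-B Rad21 peaks were in its top 25%. At that setting, 1 gene had a pre-B and 2 had a DP Rad21 promoter peak. The shares of Rad21 sites were 52.4% in all 3 cell types, 28.6% in DP and not DN and 9.52% in DN and not DP. The pre-B CTCF list was not shortened there, and 30.8% of its peaks in the windows had Rad21 in the shortened pre-B list. With flanks of 20 kb, the counts were 28, 43, 22, 8 and 27 for pre-B CTCF, IL7 pro-B CTCF, pre-B Rad21, DN Rad21 and DP Rad21, and with flanks of 100 kb 81, 122, 75, 24 and 79, as the window length sets. With promoters of 2.5 kb either side, 5 genes had an IL7 pro-B CTCF and 2 a DN Rad21 peak, and with starts of transcripts of the gene's own type 0 had a DN peak. With both such starts and lists of equal length, a combination chosen after seeing the data, 1 gene had an IL7 pro-B CTCF, 1 a pre-B Rad21, 1 a DP Rad21 and 0 a DN Rad21 promoter peak. With 1 mismatch 13.5%, and with 3 mismatches 98.1%, of pre-B CTCF peaks matched the consensus, by construction of the limit. The peak midpoint and an overlap of 50% moved none of the main results. Of 150 counts for single genes, 90 stayed within 1.5 times. A peak that is not listed is not shown to be unbound.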
